A study of Mus musculus with 3 samples.

Results

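Cluster 0 was 1 of 12 clusters of tumour cDC1s, and it stood out by the transcripts of *H2afz*, *Lyz2* and *Sub1*. Its members were the cells that carry cluster number 0 in the deposited table of cDC1s, at the clustering resolution used there, and each was matched by barcode to the raw counts of its library. The cluster held 991 of the 5806 cDC1s of the table, out of 30209 barcodes in the series. The counts came from 406 cells of the WT library, 286 of the *sGsn-/-* library and 299 of the *sGsn-/- Clec9a-/-* library.

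The study profiled conventional dendritic cells (cDCs) of MCA205 LA-OVA fibrosarcomas by scRNAseq in mice without secreted gelsolin (*sGsn-/-*), in mice that also lacked *Clec9a*, and in WT mice, the strain to which the mutants had been backcrossed being C57BL/6J. Tumours grew on both flanks of mice bred at 1 institute and aged between 6 and 20 weeks, and were taken at day 5. They were pooled by genotype, from 25 male and 12 female WT mice, 15 male and 16 female *sGsn-/-* mice, and 10 male and 17 female *sGsn-/- Clec9a-/-* mice. Sorted pre-cDCs, cDC1s and cDC2s were mixed at 1 to 1 to 2, so each genotype gave 1 library and no replicate. Differences between mice within a pool cannot be seen, and genotype and library cannot be told apart.

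Type 1 conventional dendritic cells take up material from dying cells and present it on MHC class I to CD8+ T cells, and they depend on the transcription factors IRF8 and BATF3. Resting cells mature into a state with CCR7, which guides them to the draining lymph node. CLEC9A, also called DNGR-1, binds F-actin exposed on dead cells, and secreted gelsolin severs F-actin and hinders that binding.

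The cells of cluster 0 carried the transcripts of cDC1s. All 20 genes of the cDC1 identity list were detected in them, with a summed level of 6850, 7050 and 6785 CPM (UMIs of a gene per 1000000 UMIs of the cells summed) in the WT, *sGsn-/-* and *sGsn-/- Clec9a-/-* libraries, the order used throughout. The other 4815 cDC1s held 6885, 6633 and 6691 CPM, so both sets overlapped. *Xcr1*, the receptor used in the sort, was at 241 CPM as the mean of the 3 libraries in cluster 0 and at 215 CPM in the other cDC1s. *Clec9a* was at 215 and 213 CPM in the WT and *sGsn-/-* libraries and had 0 UMIs in cluster 0 of the *sGsn-/- Clec9a-/-* library, at least 290-fold lower than in *sGsn-/-* against a floor of 3 counts per library. *Gsn* was at 154, 159 and 156 CPM, and these counts do not separate the secreted form from the cytoplasmic one, so they check nothing of the gelsolin genotype.

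Markers of most other cell types were low, the monocyte list being the exception. The sort had left out cells with CD88 or with lineage markers of T cells, B cells, NK cells and neutrophils. The study had also removed clusters of T cells, NK cells and plasmacytoid cells. Low levels of the T cell, NK, pDC and neutrophil lists were therefore largely set beforehand. The 6 cDC2 markers summed to 20.1, 23.6 and 18.9 CPM in cluster 0 and to 71.0, 67.6 and 68.2 CPM in the other cDC1s. The 11 macrophage markers summed to 61.9, 44.4 and 51.0 CPM against 101, 55.9 and 76.6 CPM, with *Apoe* the most abundant at 26.5 CPM and *Mertk* at 0 UMIs in cluster 0. The 6 monocyte markers summed to 494, 550 and 539 CPM against 759, 906 and 869 CPM, most of it *Plac8* and *Ccr2*, which at means of 267 and 257 CPM in cluster 0 were each above *Xcr1*. NK markers summed to 23.8 CPM, pDC markers to 25.3 CPM, T cell markers to 3.10 CPM, tumour or fibroblast markers to 1.61 CPM and neutrophil markers to 0.229 CPM as means of the 3 libraries, against 30.1, 49.0, 3.79, 1.93 and 0.342 CPM in the other cDC1s. None of these 8 lists had a higher summed level in cluster 0 than in the other cDC1s on the mean.

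Cluster 0 was deep and held few likely doublets, as did the other resting clusters. Its cells gave 6463562, 4484393 and 4076616 UMIs in the 3 libraries. Their median UMIs per cell were 15799, 15658.5 and 13532, against 13726, 13750 and 11860 in the other cDC1s, higher in 3 of 3 libraries by 1884.5 on average (two-sided exact paired permutation test, p = 0.25, the smallest p that 3 pairs allow). Of the cells in cluster 0, 1 of 991 (0.101%) was among the likely doublets, against 84 of 4815 (1.74%) of the other cDC1s. Cluster 4 held 51 of these 84, and among the other resting clusters 2, 3, 5 and 6 the share was 9 of 2508 (0.359%). The libraries shared 81 barcodes in pairs, of which 7 were shared among cDC1s and 0 within cluster 0.

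*H2afz* encodes the histone variant H2A.Z, which marks promoters and is made outside S phase as well. It lies on chromosome 3 from 137864487 to 137866922 (GENCODE annotation of GRCm38, + strand). Its level in cluster 0 was 3305, 3297 and 3042 CPM, against 2104, 2246 and 2035 CPM in the other cDC1s. The lowest library of cluster 0 was above the highest of the others. The fitted log2 fold change was 0.75 ± 0.06 (SE, n = 3 libraries), a description with no test, since the clusters were called on these same counts.

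*Lyz2* encodes lysozyme M, an antibacterial enzyme of myeloid cells, and lies on chromosome 10 from 117277331 to 117282321 (− strand). It was at 1290, 1194 and 1228 CPM in cluster 0 and at 719, 602 and 718 CPM in the other cDC1s, again without overlap, with a log2 fold change of 1.02 ± 0.08. *Sub1*, on chromosome 15 from 11981339 to 11996983 (− strand), encodes the single-stranded DNA-binding coactivator PC4. It was at 1908, 1878 and 1825 CPM in cluster 0 against 1388, 1454 and 1404 CPM, a log2 fold change of 0.55 ± 0.06. *Sub1* therefore differed without overlap of the libraries but by less than 1.5-fold, and by 0.40 where sums were scaled by library size alone.

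All 3 genes had their highest level of the 12 clusters in cluster 0. For *H2afz* the next cluster was cluster 8, at 2558, 2849 and 2630 CPM. For *Lyz2* it was cluster 2, at 1021, 924 and 987 CPM, and for *Sub1* it was cluster 5, at 1650, 1636 and 1764 CPM. In each case the lowest library of cluster 0 was above the highest library of the next cluster.

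**Figure D1:**
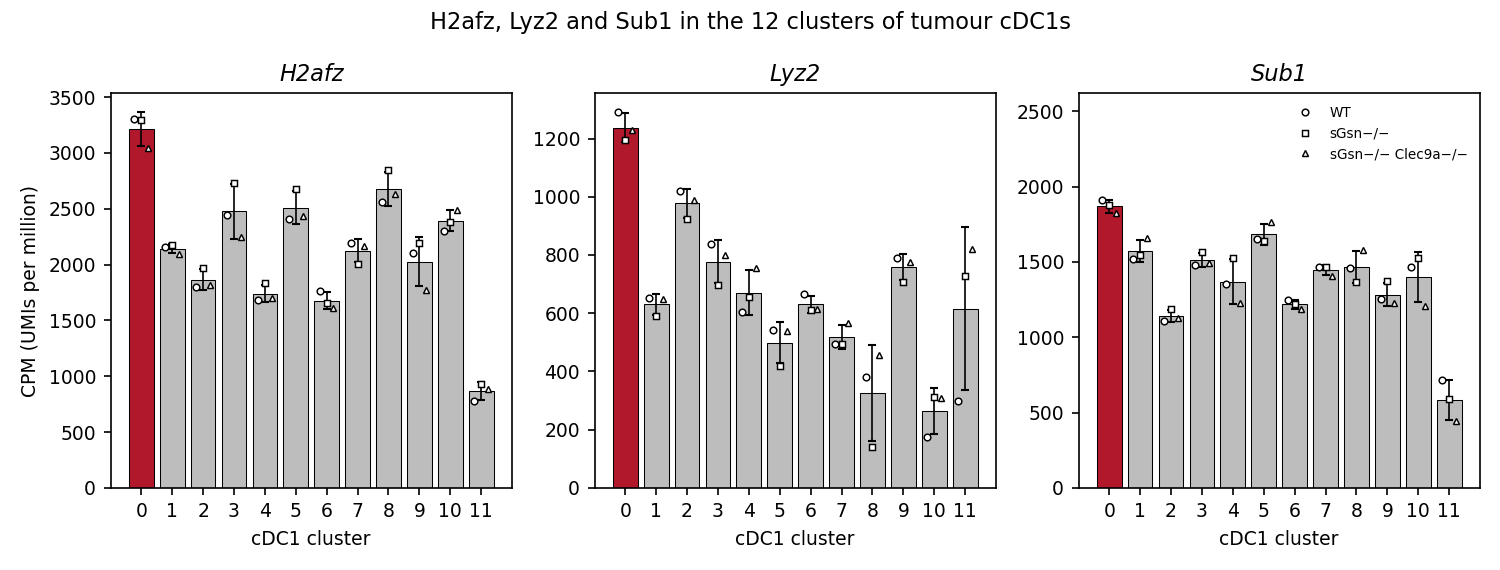
Level of *H2afz*, *Lyz2* and *Sub1* (CPM, linear axes from 0) in each of the 12 cDC1 clusters; bars are the mean and error bars the SD of the 3 libraries, symbols the libraries, and the red bar is cluster 0. Cluster 0 has the tallest bar for each gene, at a mean of 3215, 1238 and 1870 CPM.

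The difference was seen in the typical cell of the cluster. The median cell of cluster 0 had 10.5, 10.02 and 9.99 *Lyz2* UMIs per 10000, against 5.17, 4.08 and 5.35 in the other cDC1s. For *H2afz* the medians were 30.7, 29.8 and 29.1 against 17.4, 17.9 and 16.9, and for *Sub1* 18.9, 18.9 and 17.6 against 12.9, 13.4 and 13.1. The distributions overlapped, since the 75th percentile of *H2afz* in the other cDC1s, at 26.5, 27.9 and 26.3, was above the 25th percentile in cluster 0, at 21.6, 21.6 and 20.4. The 3 genes did not vary closely together from cell to cell within cluster 0, with Spearman coefficients over thinned cells of the same library from −0.01 to 0.20 among the 9 pairs and libraries.

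Free RNA from other cells was gauged with 2 sets of barcodes outside the cDC1 table, NK gate barcodes with a UMI of at least 3 of 5 NK genes and macrophage gate barcodes in which *C1qa*, *C1qb* and *C1qc* made up at least 0.2% of UMIs. With each cell thinned to 4000 UMIs, 93.6%, 93.7% and 93.9% of cluster 0 cells had a *Lyz2* UMI (99.3%, 100% and 99.3% unthinned), against 76.9%, 71.8% and 79.5% of the other cDC1s (91.2%, 86.0% and 91.3% unthinned). In the NK gate, which should lack the gene, the shares were 17.9%, 14.8% and 24.0% (37.7%, 28.4% and 38.6% unthinned) at median depths of 9678, 7459 and 6358 UMIs, below the depths of cluster 0. Both cDC1 sets were above this background, and cluster 0 was above the other cDC1s in each library. The sum of *Lyz2* in the macrophage gate was 3841, 3989 and 4408 CPM. *H2afz* and *Sub1* had a UMI in at least 94.1% and 96.3% of thinned NK gate barcodes, so the share of cells with a UMI says little about these widely expressed genes.

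Across all genes, more were called lower than higher in cluster 0 relative to the other cDC1s. Of 10905 genes with enough counts, 238 (2.18%) were higher by a fitted change of at least 1.5-fold, with the CPM higher in all 3 libraries by any amount, and 1184 (10.9%) were lower by the same rule. The rule sets no error rate. Many of the lower genes had few counts. Genes could pass the filter through the other cDC1s alone, as *Ifit3* did with 4 UMIs in cluster 0 and 1255 in the others. The balance of higher and lower calls thus depends in part on the filter. Among the 4744 genes at 20 CPM or more, a limit chosen after the counts were seen, 87 were higher and 171 lower. The median log2 fold change of all genes was −0.02 with TMM scaling and −0.17 with library size alone, which left 128 genes higher and 1665 lower, so directions below are relative to the TMM scale.

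The 12 genes with the highest log2 fold changes at 50 CPM or more included *Lyz2* and encode proteins of several kinds. *Cd14*, the co-receptor for lipopolysaccharide, was at 80.8, 71.4 and 71.6 CPM in cluster 0 against 33.1, 30.7 and 36.7 CPM in the other cDC1s (log2 fold change 1.31 ± 0.09). *Timd4*, which encodes the phosphatidylserine receptor TIM-4 that binds apoptotic cells, was at 59.7, 53.1 and 63.3 CPM against 30.1, 29.6 and 23.7 CPM (1.23 ± 0.10). The libraries of cluster 0 and of the other cDC1s did not overlap for either gene.

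The tetraspanin gene *Cd81* was at 246, 252 and 216 CPM against 133, 120 and 121 CPM (1.08 ± 0.07). *Gpr65*, which encodes a proton-sensing receptor, was at 580, 489 and 501 CPM against 327, 287 and 320 CPM (0.90 ± 0.08). *Pianp*, which encodes a ligand of the inhibitory receptor PILRα, was at 81.1, 80.5 and 94.0 CPM against 51.6, 40.6 and 56.8 CPM (0.92 ± 0.12). These 3 genes also kept the libraries apart, with cluster 0 above the others.

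Among genes at 50 CPM or more, the highest fitted change belonged to *Stk38l*, which encodes the Hippo-related kinase NDR2. This gene lies on chromosome 6 from 146724995 to 146778812 (+ strand). It was at 57.4, 61.1 and 46.9 CPM against 25.7, 22.2 and 23.7 CPM (1.36 ± 0.09). *Sgk1*, encoding a serum- and glucocorticoid-regulated kinase, was at 151, 140 and 113 CPM against 85.3, 78.4 and 80.4 CPM (0.88 ± 0.09). Both kinases were higher in every library of cluster 0 than in any library of the others pooled. For *Stk38l* resting cluster 6 was close, at a mean of 53.0 CPM against 55.1 CPM in cluster 0, and cluster 11 was above, at 84.8 CPM.

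*Plpp1*, which encodes a lipid phosphate phosphatase, was at 54.8, 55.5 and 66.7 CPM against 30.0, 29.9 and 33.2 CPM (1.07 ± 0.10). *Gpcpd1*, whose product breaks down glycerophosphocholine, was at 324, 317 and 286 CPM against 178, 159 and 168 CPM (1.03 ± 0.07). *Jdp2*, a repressor of AP-1, was at 213, 185 and 80.5 CPM against 110, 99.9 and 47.8 CPM (1.06 ± 0.29). It was higher within each library, but the groups overlapped because the *sGsn-/- Clec9a-/-* library was low in both sets, as it was over all barcodes of that library, at 27.6 CPM against 61.1 and 58.0 CPM in WT and *sGsn-/-*.

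Metallothioneins, which bind zinc and copper, were higher in cluster 0. *Mt1*, among the 12 highest, had a mean of 706 CPM against 375 CPM (1.07 on the log2 scale), and *Mt2* a mean of 21.9 against 9.13 CPM (1.43). Of the 5 genes of this list *Mt3* had 0 UMIs in cluster 0 and was not fitted. The other fitted genes, the zinc transporter gene *Slc30a1* (0.56) and *Mtf1* (0.19), which encodes a metal-sensing transcription factor, did not pass the fold. The summed level of the list was 824, 729 and 747 CPM against 440, 386 and 431 CPM. The groups did not overlap.

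Cluster 0 was the highest of the 12 clusters for 6 of the 12 genes and first or second for 10. Its mean was above that of resting cluster 6 for 10 of the 12, but *Gpcpd1* was at a mean of 386 CPM in cluster 6 against 309 CPM in cluster 0. Several of these transcripts were also plentiful in the macrophage gate, where *Cd14* had a mean of 1163 CPM, *Mt1* 1016 CPM and *Sgk1* 185 CPM, while *Timd4* had 3.62 CPM, *Plpp1* 2.87 CPM and *Pianp* 5.81 CPM there. *Cd14* was at 47.8 CPM in the NK gate, above its 33.5 CPM in the other cDC1s and below its 74.6 CPM in cluster 0. The summed level of the macrophage markers was lower in cluster 0 than in the other cDC1s in each library, but not lower than in the other resting clusters 2, 3, 5 and 6, at 61.9, 44.4 and 51.02 CPM against 61.5, 42.8 and 50.6 CPM. Relative to all other cDC1s, single markers differed from the sum. *Adgre1* was higher in each library, at 2.63, 4.46 and 5.64 CPM against 2.33, 1.94 and 1.84 CPM in all other cDC1s. *Apoe* was higher in *sGsn-/-* and *sGsn-/- Clec9a-/-*, at 22.97 and 26.5 CPM against 16.1 and 21.2 CPM in all other cDC1s. The part of free RNA in the *Cd14* values was not tested.

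**Figure D2:**
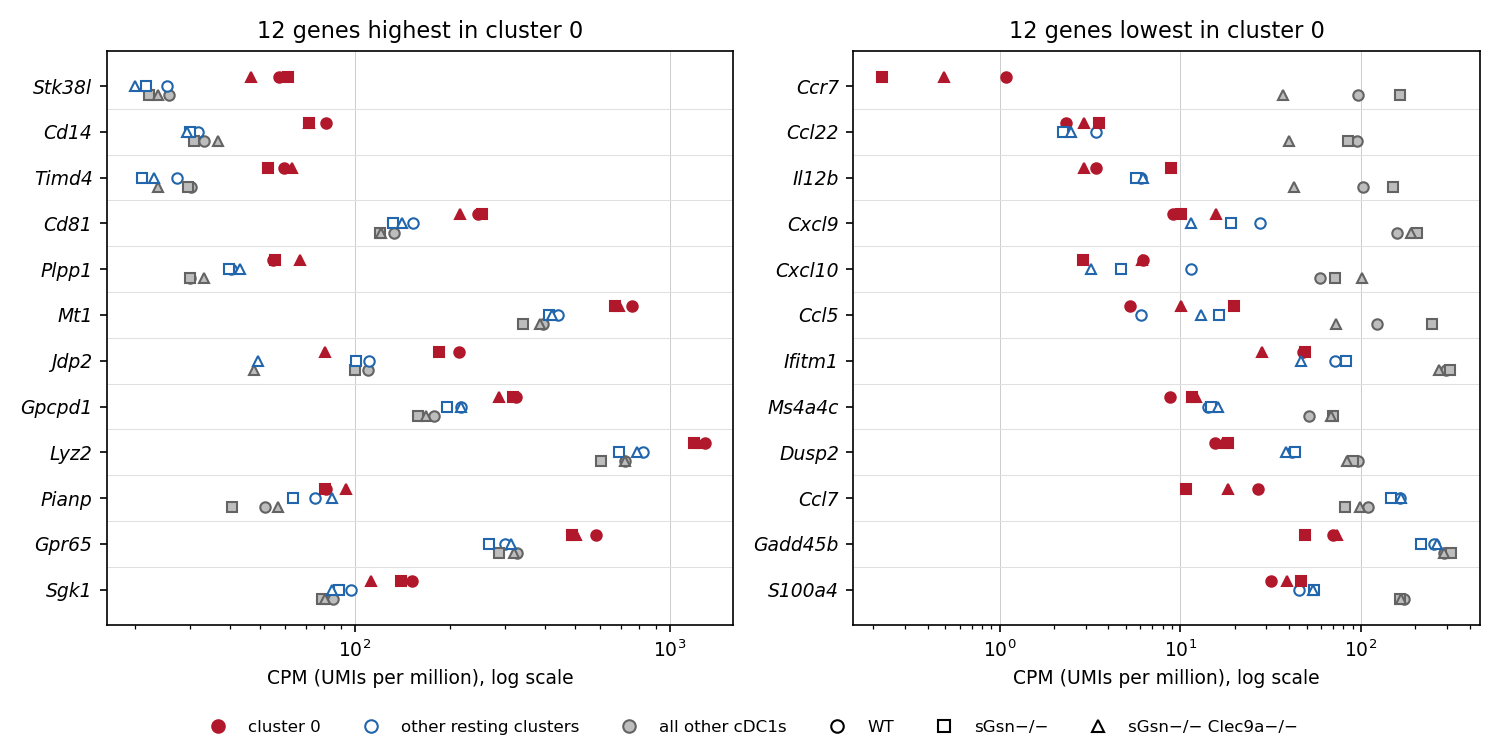
Level (CPM, log axes) of the 12 genes with the highest and the 12 with the lowest fitted log2 fold change among genes at 50 CPM or more. Each library has 1 symbol for cluster 0 (red), the other resting clusters 2, 3, 5 and 6 (blue) and all other cDC1s (grey). *Ccr7* has no blue symbols because it had too few counts in the comparison with the resting clusters. Most of the genes on the right have blue symbols near the red ones.

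The 12 genes lowest relative to the other cDC1s were taken from genes at 50 CPM or more. Of these, 4 were in the activation and migration list, 2 in the interferon-stimulated list and 2 in the early cDC1 and precursor list. The immediate early list held 1 and none of the lists held the other 3. *Ccr7*, on chromosome 11 from 99144196 to 99155077 (− strand), was at 1.08, 0.223 and 0.491 CPM against 96.3, 165 and 37.2 CPM. *Il12b*, which encodes the p40 chain shared by IL-12 and IL-23, was at 3.40, 8.92 and 2.94 CPM against 102, 151 and 42.4 CPM. *Cxcl9*, encoding an interferon-induced ligand of CXCR3, was at 9.13, 10.03 and 15.7 CPM against 159, 204 and 190 CPM. None of the 3 genes overlapped between the sets.

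The other chemokines among the 12 were *Ccl22* (log2 fold change −4.52 ± 0.39), *Cxcl10* (−3.75 ± 0.28), *Ccl5* (−3.57 ± 0.46) and *Ccl7* (−2.16 ± 0.20). *Ifitm1* (−2.64 ± 0.13) and *S100a4* (−1.97 ± 0.10), both from the list of early cDC1s and precursors, *Ms4a4c* (−2.42 ± 0.17), *Dusp2* (−2.27 ± 0.09), from the immediate early list, and *Gadd45b* (−2.05 ± 0.12) completed the set. *Ccl7*, *Ms4a4c* and *Gadd45b* were in no list. For 5 of these 12 genes the highest cluster was cluster 8, which had *Ccr7* at a mean of 2001 CPM and *Il12b* at 1856 CPM, and for *Cxcl9* and *Cxcl10* it was cluster 10. Cluster 0 was itself the lowest of the 12 clusters for 3, namely *Ifitm1*, *Dusp2* and *Gadd45b*.

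In the lists of activation, interferon, early cDC1, sterol synthesis and immediate early genes, most fitted genes were lower in cluster 0, beside 10.9% of all genes. Some members passed the filter through the other cDC1s, as *Ccr7* did with 10 UMIs in cluster 0 and 6312 in the others. The study also describes other clusters by members of the first 3 lists, such as *Ccr7*, *Il12b*, *Cxcl9*, *Isg15*, *S100a4* and *Ifitm1*. Low counts of these lists in cluster 0 were therefore in part set beforehand. Of the activation and migration list 15 of 20 fitted genes were lower and 0 higher (median log2 fold change −1.66), of the interferon-stimulated list 18 of 20 were lower (−1.77), and of the early cDC1 and precursor list 8 of 12 (−1.28). Sterol synthesis, the pathway that leads to cholesterol, had 13 of 16 genes lower (−0.98), among them *Hmgcs1* (−1.63), *Idi1* (−1.60) and *Fdps* (−1.58). The cDC2 list had 5 of 6 fitted genes lower (−1.12), the monocyte list 2 of 3 (−0.88) and the pDC list 2 of 3 (−0.77). Of the macrophage list 4 of 10 fitted genes were lower and 1, *Adgre1*, was higher (−0.46), and of the NK and T cell lists 0 of 4 and 0 of 2 passed the fold (−0.20 and 0.06, the latter reversed with library size alone).

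Immediate early genes and feedback regulators of NF-κB, which rise within minutes of a stimulus in many cells, were lower for 13 of 22 genes and higher for 1, *Egr3* (0.66), with a median of −0.83. *Nfkbia*, the inhibitor of NF-κB, was at 112, 110 and 119 CPM against 375, 384 and 300 CPM (−1.48 ± 0.08). Cluster 0 was the lowest of the 12 clusters for it. The heat shock list had 5 of 12 genes lower (−0.43) and the list of folding in the endoplasmic reticulum 3 of 18 (−0.36).

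None of the fitted genes of the cell division lists was at least 1.5-fold higher in cluster 0 than in the other cDC1s. Of all genes 2.18% were called higher and 10.9% lower, so a lack of higher genes says little for lists of this size. Some of the lower genes below had few UMIs in cluster 0, such as *Cenpf* with 7 and *Ung* with 4. The study had excluded proliferating cells before it clustered the cDC1s, so such cells had been taken out of both sets. Of the G2 and M phase list 9 of 19 fitted genes were lower and 0 higher (−0.45), with a summed level of 96.1, 92.3 and 70.4 CPM against 117, 139 and 119 CPM. Of the S phase list 4 of 20 were lower and 0 higher (−0.20, but 0.04 with cells thinned to 4000 UMIs). In the list of histone variants and chromatin proteins *H2afz* was the 1 of 22 genes past 1.5-fold, and the median of 0.11 turned to −0.04 with library size alone. Other H2A variants, *H2afj* (−0.14), *H2afx* (0.03), *H2afv* (0.15) and *H2afy* (0.15), had changes no larger than the shift between scalings.

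Of the list of antigen presentation by MHC class II 0 of 10 genes passed the fold. The median was 0.31, *Ciita*, the transactivator of these genes, was at −0.21, and the summed level was 55062, 54409 and 54077 CPM against 48188, 47917 and 49064 CPM. *H2-Aa* was at 9523, 9556 and 9437 CPM against 8037, 8041 and 8321 CPM (0.38 ± 0.06). The ribosomal protein list, with 0 of 81 genes past the fold, had a median of 0.23. Both medians kept their sign with library size alone, at 0.16 and 0.07.

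In the lysosome and lysozyme list *Lyz2* and *Lyz1* (0.94) were higher and *Cd63* (−4.02) and *Lgmn* (−1.99) lower among 26 genes, and the median of 0.11 turned to −0.05 with library size alone. Of the cDC1 identity list 1 of 20 was higher, the scavenger receptor gene *Cd36* (0.62 ± 0.13), with a median of 0.28. The lists of MHC class I presentation (0.13), proteasome core (0.10), nuclear-encoded oxidative phosphorylation (0.14), mitochondrially encoded genes (0.08) and glycolysis (−0.02) had 0 genes past the fold, and the actin list (0.15) had 1 lower, *Capg*. The first 4 of these medians turned negative with library size alone, at −0.02, −0.05, −0.01 and −0.07, and the actin median came close to 0.

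A narrower comparison set cluster 0 against the 2508 cells of clusters 2, 3, 5 and 6, which the study also calls resting. It asks what marks cluster 0 among cells at the same stage, and the genes for it were named by the same rule after the first comparison had been seen. Of 10197 genes 199 (1.95%) were at least 1.5-fold higher and 837 (8.21%) lower, and at 20 CPM or more 89 and 109 of 4754. The 3 marker genes remained higher, *H2afz* by 0.73 ± 0.06, *Lyz2* by 0.85 ± 0.08 and *Sub1* by 0.60 ± 0.06 on the log2 scale.

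Most of the difference in maturation and interferon genes was not seen here. This reference leaves out the clusters that the study calls early or activated, so a smaller difference in their genes was in part set by that choice. The medians are also over fewer genes, since *Ccr7*, *Fscn1* and *Ifit3*, among others, were not fitted here. The median of the activation and migration list was 0.17, with 2 of 16 fitted genes higher and 1 lower, that of the early and precursor list was 0.05, with 1 of 12 higher, and that of the interferon list was −0.22, with 2 of 15 lower. Sterol synthesis had 2 of 16 genes lower, with a median of −0.24. Of the G2 and M phase list *Cdk1* and *Cenpa* were higher and 5 of 16 lower (−0.16), and of the S phase list 0 of 17 passed the fold (0.13). Of the cDC1 identity list 0 of 20 were higher and 2, *Snx22* and *Zbtb46*, lower, with a median of 0.01, and its summed level of 6850, 7050 and 6785 CPM was below the 7923, 7688 and 7646 CPM of the resting clusters without overlap. *Ccl22* and *Ccl5*, among the lowest genes against all other cDC1s, were close to the level of the resting clusters, with log2 fold changes of 0.21 ± 0.29 and 0.14 ± 0.37.

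The immediate early list was also lower in cluster 0 than in the other resting clusters. Its summed level was 11836, 11806 and 12817 CPM in cluster 0, and its means were 17535, 26744, 14694 and 22345 CPM in clusters 2, 3, 5 and 6. The study describes clusters 2, 3 and 6 by transcripts that include *Fos*, *Jun* and *Dusp1*. Lower levels of such genes in cluster 0 were therefore in part set by how the clusters were called. *Fos*, on chromosome 12 from 85473890 to 85477273 (+ strand), was at 1251, 1195 and 1374 CPM in cluster 0 against 4251, 3815 and 3929 CPM in the other resting clusters (−1.49 ± 0.07). *Jun*, its partner in AP-1, was at 267, 214 and 260 CPM against 1020, 857 and 791 CPM (−1.68 ± 0.09). *Egr1*, a zinc finger factor induced by growth signals, was at 241, 295 and 371 CPM against 1009, 1002 and 1040 CPM (−1.59 ± 0.12). In all 3 genes the highest library of cluster 0 was below the lowest of the resting clusters.

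*Dusp1*, a phosphatase of MAP kinases, was at 311, 315 and 352 CPM against 1161, 862 and 1102 CPM (−1.52 ± 0.10). Of the immediate early list 12 of 22 genes were lower and 0 higher, with a median of −0.69. *Gadd45b* (−1.76 ± 0.12) and *Cited2*, a partner of CBP and p300 (−1.56 ± 0.11), were also among the 12 lowest.

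The heat shock list had 6 of 11 genes lower and 0 higher, with a median of −0.62. *Hspa1a* was at 508, 159 and 166 CPM against 1859, 1130 and 849 CPM (−2.02 ± 0.32), and *Hspa1b* was at 173, 50.4 and 48.3 CPM against 801, 415 and 330 CPM (−2.30 ± 0.35). Neither gene overlapped between the sets, but WT was the highest library in both sets. These are near-identical copies, so the split of UMIs between them is uncertain. The difference was uneven among the resting clusters, since the heat shock list summed to a mean of 14563 CPM in cluster 3 and of 7350 CPM in cluster 5, below the 7499 CPM of cluster 0.

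Of the list of folding in the endoplasmic reticulum 7 of 18 genes were lower and 0 higher (median −0.53), among them *Creld2* (−1.43), *Hyou1* (−0.96), *Manf* (−0.83) and *Sdf2l1* (−0.81). Much of this difference lay in cluster 5, which the study describes by such transcripts. The list summed to a mean of 12469 CPM there, against 3685 CPM in cluster 0 and 3517, 4212 and 4557 CPM in clusters 2, 3 and 6. Against single clusters, 17 of 18 genes were at least 1.5-fold lower in CPM in all 3 libraries relative to cluster 5. The count was 0 relative to cluster 2, 2 relative to cluster 3 and 6 relative to cluster 6. Over all genes at 50 CPM or more, 188 of 2557 were lower relative to cluster 5 by that rule. The counts were 54 of 2435 relative to cluster 2, 78 of 2493 relative to cluster 3 and 702 of 2918 relative to cluster 6.

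*Ccl7* was at 26.9, 10.7 and 18.4 CPM in cluster 0 and at 165, 147 and 166 CPM in the other resting clusters (−2.88 ± 0.17). *Ccl2*, like *Ccl7* a ligand of CCR2, was at 71.6, 59.5 and 57.4 CPM against 299, 259 and 266 CPM (−1.96 ± 0.09), and *Ccl3* was at 21.7, 26.1 and 13.7 CPM against 76.7, 57.4 and 63.2 CPM (−1.51 ± 0.14). The libraries did not overlap for these chemokines. Much of the difference lay in cluster 2, which had a mean of 381 CPM of *Ccl7* and 545 CPM of *Ccl2*, whereas cluster 3 had 17.1 CPM of *Ccl7*, below the 18.7 CPM of cluster 0.

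Of the 12 lowest genes of this comparison at 50 CPM or more, cluster 0 was the lowest of the 5 resting clusters for 11. It was the lowest of all 12 clusters for 2. Low *Fos* was not confined to it, since cluster 8 had a mean of 977 CPM, below the 1274 CPM of cluster 0, and cluster 11 had 1361 CPM. For *Egr1* the mean of cluster 0 was 302 CPM, that of cluster 1 was 329 CPM and that of cluster 8 was 104 CPM.

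The 12 genes highest against the resting clusters, at 50 CPM or more, included 6 already named above. These were *Cd14* (1.46 ± 0.08), *Timd4* (1.45 ± 0.10), *Stk38l* (1.45 ± 0.10), *Jdp2* (1.05 ± 0.25), *Gpr65* (1.003 ± 0.08) and *Cd81* (0.91 ± 0.07). *Nfe2l2*, which encodes the oxidative stress factor NRF2, was at 291, 250 and 226 CPM against 149, 156 and 124 CPM (1.01 ± 0.09). *Ncoa7*, encoding an interferon-inducible protein of the TLDc family, was at 463, 538 and 492 CPM against 231, 271 and 274 CPM (1.105 ± 0.08). *Vps37b*, a subunit gene of the ESCRT-I sorting complex, was at 234, 231 and 208 CPM against 119, 118 and 107 CPM (1.13 ± 0.07). The libraries did not overlap for these 3 genes against the resting clusters pooled. Cluster 6 alone had *Vps37b* at a mean of 234 CPM, above the 224 CPM of cluster 0.

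*Pde4b*, a phosphodiesterase of cyclic AMP (0.99 ± 0.09), *Slc16a6*, a transporter of monocarboxylates (0.93 ± 0.10), and *Bcl2a1a*, an anti-apoptotic BCL2 relative (0.90 ± 0.12), made up the set, the last with near-identical copies from which its UMIs may not be separable. Cluster 0 was the highest of the 5 resting clusters for 9 of these 12 genes but of all 12 clusters for 2. Cluster 6 was above it for *Vps37b*, for *Pde4b* (means of 140 against 139 CPM) and for *Slc16a6* (83.3 against 65.0 CPM). *Nfe2l2* reached a mean of 541 CPM and *Ncoa7* 1043 CPM in cluster 8, against 256 and 498 CPM in cluster 0. Of the 4 fitted genes of the metallothionein list *Mt1*, *Mt2* and the zinc transporter gene *Slc30a1* were higher and 0 lower, with a median of 0.76, and of the histone list 3 of 22 were higher (0.16).

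**Figure D3:**
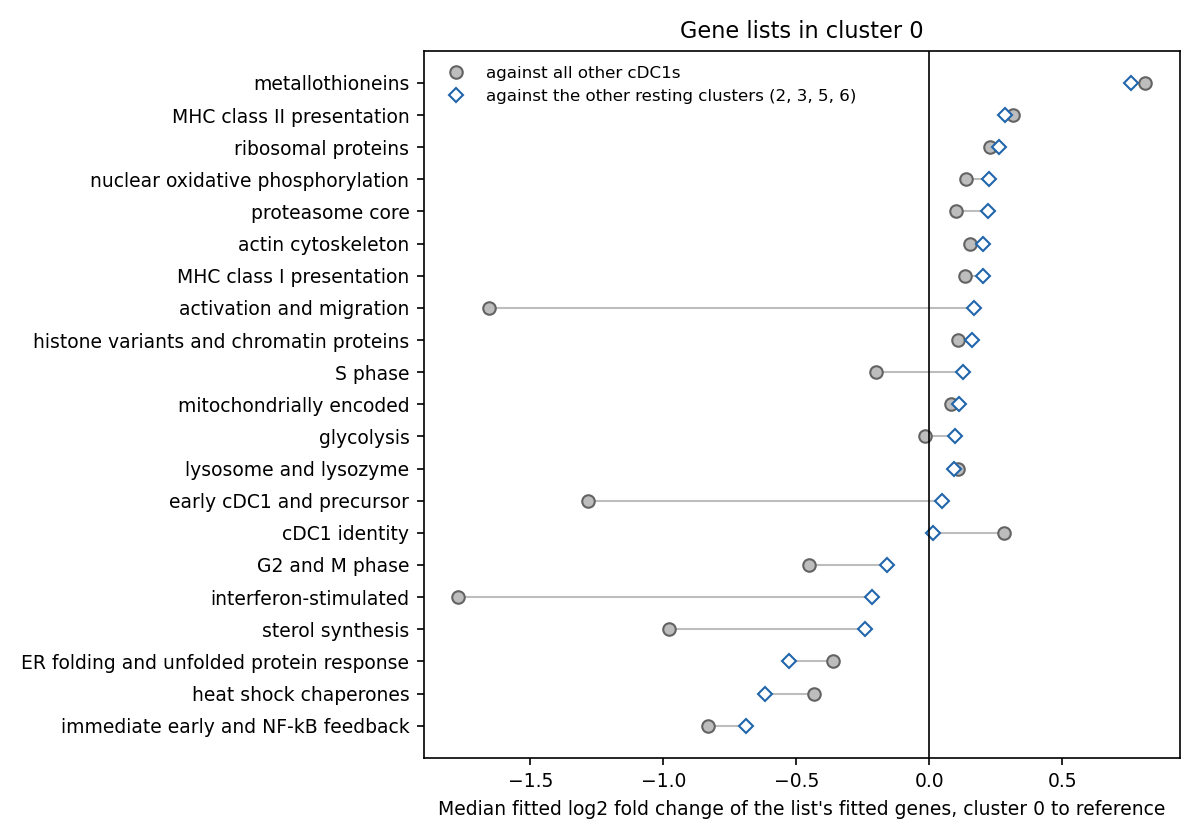
Median fitted log2 fold change of 21 gene lists (vertical axis) in cluster 0 relative to all other cDC1s (grey circles) and to the other resting clusters 2, 3, 5 and 6 (blue diamonds); each median is over the genes of the list with enough counts. The activation, early and interferon lists lie at −1.66, −1.28 and −1.77 against all other cDC1s and at 0.17, 0.05 and −0.22 against the resting clusters, whereas the immediate early list lies at −0.83 and −0.69. The study describes clusters 2, 3 and 6 by *Fos*, *Jun* and *Dusp1*, which are members of the immediate early list.

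The nearest clusters were resting ones. Among genes at 50 CPM or more in either cluster, 100 of 2493 (4.01%) were at least 1.5-fold apart in CPM from cluster 3 in the same direction in all 3 libraries, with 22 higher and 78 lower in cluster 0. From cluster 2 the count was 126 of 2435 (5.17%), with 72 higher and 54 lower. Clusters 9 (207, 8.12%), 1 (217, 8.68%), 5 (248, 9.7%), 7 (289, 11.5%), 4 (327, 12.4%) and 10 (400, 14.8%) followed. Cluster 6 (924, 31.7%), cluster 8 (988, 35.2%) and cluster 11 (1481, 41.7%) were farthest, and clusters 6 and 11 were also shallow, with median UMIs per cell of 8530.5 and 2348 against 14925 in cluster 0. With cells thinned to 4000 UMIs, a depth that 54 of the 60 cells of cluster 11 did not reach, the count for cluster 11 was 790, that for cluster 6 was 919 and that for cluster 8 was 1012, the highest.

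Cluster 0 made up a similar share of the cDC1s of each genotype. It was 17.5% of 2316 cDC1s in WT (95% Clopper-Pearson interval 16.002 to 19.1%), 16.7% of 1712 in *sGsn-/-* (14.97 to 18.6%) and 16.8% of 1778 in *sGsn-/- Clec9a-/-* (15.1 to 18.6%). The intervals overlap and cover counting error only, so a difference was not detectable at this depth with 1 library per genotype.

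Levels within cluster 0 were also compared between genotypes. Of 2389 genes at 50 CPM or more in either library, 11 were at least 1.5-fold apart between *sGsn-/-* and WT, with a median absolute log2 ratio of 0.08, against 9 genes in the other cDC1s. Between *sGsn-/- Clec9a-/-* and *sGsn-/-* 17 of 2349 genes were apart, with a median of 0.11, against 18 in the other cDC1s. With cells thinned to 4000 UMIs, which leaves fewer UMIs in each sum, these counts in cluster 0 were 40 and 72. The ratios compare single libraries and have no replicate check.

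Chaperone genes were among those with the smallest ratios of *sGsn-/-* to WT. *Hspa1b* was at 50.4 CPM (95% Poisson interval 44.0 to 57.4) in *sGsn-/-* and 173 CPM (163 to 184) in WT, a log2 ratio of −1.77 in cluster 0 and of −1.02 in the other cDC1s. *Hspa1a* (−1.67), *Hsph1* (−1.07) and *Dnajb1* (−0.87) pointed the same way, with −0.80, −0.69 and −0.70 in the other cDC1s. The largest ratios were those of *Arl4c* (0.65, 0.40 in the other cDC1s), *Rgs1* (0.63 and 0.48), *Plet1* (0.50 and 0.65), *Psmb7* (0.43 and 0.07) and *Fdps* (0.42 and 0.38).

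Beside *Clec9a* itself, *Cebpb*, *Fdps*, *Ppp1r14b* and *Jdp2* had the smallest ratios of *sGsn-/- Clec9a-/-* to *sGsn-/-*. *Cebpb*, encoding a transcription factor of myeloid cells, was at 18.4 CPM (14.5 to 23.1) and 52.0 CPM (45.5 to 59.1), a log2 ratio of −1.47 in cluster 0 and −1.72 in the other cDC1s. *Fdps* was at −1.41 and −0.70, *Ppp1r14b* at −1.35 and −1.15, and *Jdp2* at −1.20 and −1.05. The largest were *Gm42418* (0.84 and 0.96), *AY036118* (0.77 and 0.65), *Neat1* (0.75 and 0.63), *Gadd45b* (0.58 and −0.13) and *Pglyrp1* (0.58 and 0.06).

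Some of the named genes overlap others in the annotation. *Clec9a* shares sequence span with *Clec1b* on the same strand, *Cxcl10* with *Art3*, *Plpp1* with *Mtrex* and *Jun* with *Junos* on the opposite strand, and *Ncoa7* with *Hint3* on the same strand. The sources used here do not state how the counting assigned UMIs to overlapping genes or to near-identical copies.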

How the data were processed

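Each library was 1 genotype, measured by droplet scRNAseq. Per the file headers, the authors counted reads with Cell Ranger 6.0.1, on mm10 (GRCm38) per the labels, and deposited the raw counts (UMIs of each gene in each barcode) and a table of cDC1s with cluster numbers from Seurat after integration of the libraries. The labels give Seurat 4.0.0 and the methods of the study version 3. The table's UMI count equalled that of the matrix for 810 of 991 cluster 0 cells and differed by at most 5.

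Raw UMIs were summed per library over cluster 0 and over the other cDC1s. The CPM of each sum and log2 fold changes with standard errors came from these deposited counts with edgeR 4.0.16 (R 4.3.3; TMM factors, filterByExpr, quasi-likelihood fit). A gene counted as higher or lower when the fitted change was at least 1.5-fold and the CPM ratio had the same direction in all 3 libraries. On simulated counts with few changed genes the rule found most of these, and most of its calls fell on unchanged genes. No p-value was taken across genes, because the clusters were called on these genes. The libraries differ in genotype, so their spread holds that difference.

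Named genes were *H2afz*, *Lyz2*, *Sub1*, *Clec9a* and *Gsn*, the 12 highest and 12 lowest changes at 50 CPM or more with the same direction in all 3 libraries, up to 4 members at 20 CPM or more of each of 29 gene lists, and, between genotypes, the 5 largest and 5 smallest ratios at 50 CPM or more, 0.5 CPM being added for those ratios. Other members of lists named in the text, those named against the resting clusters and single clusters were chosen after their values were seen. Members and lists were chosen with earlier results of these data known.

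Likely doublets were the 6% of barcodes of each library with the highest Scrublet score (scanpy 1.11.5), whose automatic threshold called doublets in 1 of 3 libraries. Cells were thinned to 4000 UMIs by drawing without replacement, and shallower cells were left out. Intervals are 95% Clopper-Pearson or exact Poisson (scipy 1.17.1). The sums of cluster 0 and of the other cDC1s of a library share cells of 1 pool, and their deviations from the group means correlated at 0.196, 0.192 and 0.236 over genes, so the libraries pair the sums. Alternatives were DESeq2 1.42.0, library size alone, no filter, the replicate block, each library left out, thinned cells, no doublets, and other reference cells.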

Additional observations from a re-analysis of the deposited data

Results flagged for a closer look

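Of the measures in which the libraries pointed in opposite directions, 2 are described here. With 1 library per genotype these differences were not tested. Others included the log2 ratios of summed T cell markers, at −0.59, −0.65 and 0.58, and of tumour or fibroblast markers, at −0.69, 0.26 and −0.61. Both of these lists had low levels. The log2 ratio of *Apoe* CPM in cluster 0 to the other cDC1s was −0.19 in WT, 0.50 in *sGsn-/-* and 0.32 in *sGsn-/- Clec9a-/-*, with levels of 30.0, 22.97 and 26.5 CPM against 34.3, 16.1 and 21.2 CPM. In the NK gate, the gauge of free RNA, *Apoe* was at 38.8, 11.01 and 16.98 CPM, above cluster 0 in WT, and the part of free RNA in the difference was not tested. Among cells with UMIs of either *Xist* or Y-linked genes but not both, the share with Y-linked UMIs was 24.2%, 37.2% and 16.5% in cluster 0 and 18.2%, 36.1% and 25.1% in the other cDC1s, a difference of 5.96, 1.05 and −8.59 percentage points.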

How the results depend on the processing

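The 26 named marker, highest and lowest genes kept their direction under every alternative to the comparison with all other cDC1s other than the change to the resting clusters, where 23 did, *Ccr7* having too few counts to be fitted and *Ccl22* (0.21) and *Ccl5* (0.14) turning positive. *Cd63* (0.64) and *Plet1* (0.33) turned positive there too, as did the medians of the early and precursor list (0.046) and of the activation list (0.17). The count of higher genes was 128 with library size alone and 87 at 20 CPM or more, and that of lower genes 2649 with no filter, 2052 with the other clusters weighted equally and 171 at 20 CPM or more, the last limit being chosen after the data were seen. Leaving out 1 library gave 261 to 340 higher and 1282 to 1446 lower genes, and the replicate block 241 and 1190, with no count changed by more than 1.5 times.

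With library size alone *H2afz* was at 0.59, *Lyz2* at 0.86, *Sub1* at 0.40, the immediate early median at −0.99 and the metallothionein median at 0.66. With clusters weighted equally *H2afz* was at 0.65, *Sub1* at 0.49 and these medians at −0.99 and 0.71. Under that weighting *mt-Co1*, *mt-Co2*, *mt-Nd2* and *mt-Nd3* turned negative, at −0.34, −0.44, −0.53 and −0.44. In the main fit they were at 0.15, 0.14, 0.13 and 0.13. Against the resting clusters *Lyz2* was at 0.85 and the immediate early median at −0.69. The metallothionein median was 0.54 with no filter and 0.90 in thinned cells. Unthinned, 100% of cluster 0 cells had an *H2afz* UMI and 99.5% a *Lyz2* UMI, against 99.6% and 93.7% thinned.

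Thinned cells gave 40 and 72 genes apart between genotypes within cluster 0, where sums have fewer UMIs, and 790 genes apart from cluster 11. Comparisons of cluster 0 with single clusters, thinned or without doublets, were added after the data were seen. Shares of cluster 0 stayed within their intervals and the difference in median UMIs stayed positive under the alternatives run. Of 1185 values of single named genes under alternatives 207 moved by more than the SD of the 3 libraries, as did 82 of 322 medians of lists, and 5 of 60 ratios of named genes between genotypes moved beyond their counting interval. The causes of these shifts were not tested.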
